A study of Caenorhabditis elegans with 24 samples.

Results

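RNA levels of 2 mutant strains of Caenorhabditis elegans grown at 20 °C, 3xFG and WAGO-4 KO, were compared gene by gene. The comparison covers the 13546 genes, of 46926 in the deposited tables, whose mean normalized count over the 12 libraries of 20 °C was at least 10. For each gene the difference is the log2 ratio of 3xFG to WT minus the log2 ratio of WAGO-4 KO to WT, so that WT cancels and a positive value means more RNA in 3xFG. The study asked what becomes of the Argonaute protein WAGO-4 when it leaves germ granules. Here 3xFG, with mislocalized WAGO-4 and changed GLH proteins, is set beside WAGO-4 KO, which lacks WAGO-4. RNA was taken from whole young adult worms, depleted of ribosomal RNA and sequenced with strand information, with 3 libraries per strain and temperature.

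3xFG has phenylalanine to alanine changes in the FG dipeptides of GLH-1 and GLH-4 and lacks most FG repeats of GLH-2, in a strain where WAGO-4 carries a FLAG and GFP tag. WAGO-4 KO has a stop codon placed in the second exon of wago-4, and its label names no tag. The effects of the tag and of the lost protein therefore cannot be told apart in this comparison. The study also acknowledges that GLH-4, and perhaps further proteins of the granules, are mislocalized in 3xFG. Effects of the GLH changes and of WAGO-4 mislocalization cannot be told apart here either. WT carries the tagged WAGO-4 and no further change, and WAGO-4(Y611E), which carries the same tag and a changed amino acid in WAGO-4, is used here only to show where another mutant lies. The files hold no values of single libraries. The level of a strain is therefore given as a group mean, worked out from the mean normalized count and the 3 ratios to WT, and its spread enters only through the standard error (SE) of the difference.

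WAGO-4 is an Argonaute of the worm germline that binds 22G RNAs, short antisense RNAs made by RNA-dependent RNA polymerases, and takes part in inherited gene silencing. The GLH proteins are relatives of the Vasa helicase and belong to the P granules that surround germ cell nuclei. Their FG repeats resemble those of nuclear pore proteins. An adult hermaphrodite holds a large germline that has switched from sperm to oocytes, so whole worm RNA mixes sperm, oocyte and somatic transcripts.

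The guide RNA used to place the stop codon in wago-4 (chromosome II, 12919551 to 12923377, plus strand, WBcel235) is shown because it directed the lesion that defines WAGO-4 KO. It is the study's designed 20-base spacer, with no base marked.
wago-4 g1: agttacaaaatcgagaagga

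Of the 13546 genes, 1164 (8.59%) were higher and 630 (4.65%) were lower in 3xFG than in WAGO-4 KO. A gene counted as called at an adjusted p under 0.05 in a two-sided normal (Wald) test with Benjamini-Hochberg adjustment over all 13546 genes. Of the called genes, 790 higher and 113 lower genes differed at least 2-fold. In 53 called genes the 3xFG or WAGO-4 KO mean was under 1, which is a floor of 3 counts over a group. On simulated counts the test was much too liberal in that range, so these calls are not relied on, and without them 1129 higher (8.49%) and 612 lower (4.6%) genes of 13297 are left. The test was also somewhat too liberal for group means up to 30, and 1640 called genes had both means at 30 or over. Of the genes named here, C38D9.2, T23F6.3, oac-9, hsp-12.3, his-70, nlp-4, flp-5 and pals-3 had a WAGO-4 KO mean under 30.

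The calls rest on the assumption of a normal statistic and on a derived SE. With a t distribution of 8 degrees of freedom 0 genes passed, against 2672 with an unadjusted p under 0.05, and with the widest possible SE 53 genes passed. The median difference of all genes was 0.18, and with the differences re-centred on it 817 genes (6.03%) were higher and 1734 (12.8%) lower, so the balance of directions depends on the centring. The median difference was 0.85 among genes with a mean count from 10 to 100 and -0.13 among those over 1000. In the lower range 84 of 4729 genes were called higher and 25 lower. Re-centring subtracts 0.18 at every mean count. It thus moves genes with a mean count over 1000, whose median is already below 0, further down. Lower calls gained by re-centring in lists of abundant genes carry this limit.

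**Figure D1:**
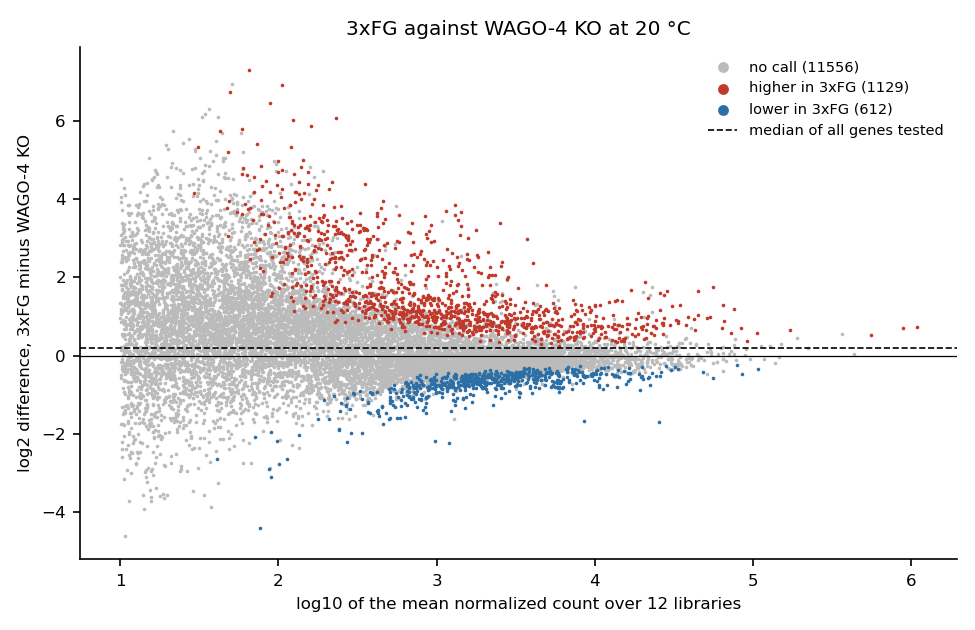
Log2 difference of 3xFG minus WAGO-4 KO at 20 °C (vertical axis) against log10 of the mean normalized count over 12 libraries (horizontal axis), 1 point per gene, without the 249 genes in which a group mean was under 1. Red and blue points are the 1129 higher and 612 lower called genes, and the dashed line is the median of all genes, 0.18.

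The genes that the strains carry in altered form come first. The mean of wago-4 was 6798 in WT, 9972 in 3xFG, 7017 in WAGO-4 KO and 6627 in WAGO-4(Y611E). It was thus highest in 3xFG, and WAGO-4 KO was close to WT, so the mRNA level does not check the knockout label. The study checked the knockout at the protein level, reporting WAGO-4 protein absent by targeted mass spectrometry. The 3xFG mRNA level was higher than that of WAGO-4 KO (log2 difference 0.51, SE 0.15, adjusted p = 0.0113). After re-centring the adjusted p was 0.108 and the call was lost.

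At 20 °C the 3 GLH genes showed no detectable difference between both mutants. glh-2 was at 2470 in WT, 5511 in 3xFG, 5504 in WAGO-4 KO and 4933 in WAGO-4(Y611E). All mutants lay above WT, and the difference between 3xFG and WAGO-4 KO was 0.00 (95% interval -0.54 to 0.54). The differences were 0.11 for glh-1 (95% interval -0.31 to 0.53) and 0.18 for glh-4 (-0.22 to 0.58). At 26 °C glh-2 was higher in 3xFG, by 0.61 (SE 0.18, adjusted p = 0.0356). Because 3xFG lacks part of glh-2, its counts come from a shorter transcript.

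The gene with the lowest p was plk-3, which encodes a polo-like kinase. Its mean was 9656 in WT, 3546 in 3xFG, 11342 in WAGO-4 KO and 9803 in WAGO-4(Y611E). 3xFG was the low strain and the other strains lay together (log2 difference -1.68, SE 0.17, adjusted p = 4.76e-19). F55G1.6, singled out after its values were seen, was also low in 3xFG, at 1756 in WT, 671 in 3xFG, 1605 in WAGO-4 KO and 1199 in WAGO-4(Y611E) (log2 difference -1.26, SE 0.20, adjusted p = 2.21e-07). Both genes lie close together on chromosome IV, at 7470860 to 7473209 (plk-3) and 7473517 to 7474959 (F55G1.6). slc-25A18.2, named below and also low in 3xFG, lies beside them at 7475041 to 7476182. These genes may therefore not be separate responses, and whether they share a local cause was not tested.

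The other genes that led the lower side were also low in 3xFG rather than high in WAGO-4 KO. thk-1, a thymidine kinase gene, was at 1114 in WT, 435 in 3xFG, 1090 in WAGO-4 KO and 728 in WAGO-4(Y611E) (log2 difference -1.33, SE 0.29, adjusted p = 3.35e-04). The mean of pfd-6, a prefoldin subunit gene, was 717 in WT, 267 in 3xFG, 811 in WAGO-4 KO and 562 in WAGO-4(Y611E) (log2 difference -1.60, SE 0.33, adjusted p = 1.43e-04). For cyn-10, a cyclophilin gene, the values were 475 in WT, 199 in 3xFG, 555 in WAGO-4 KO and 484 in WAGO-4(Y611E) (log2 difference -1.48, SE 0.30, adjusted p = 1.08e-04). The mitochondrial carrier family gene slc-25A18.2 had a mean of 69.9 in 3xFG and 326 in WAGO-4 KO, and the cell cycle gene cks-1, whose product binds cyclin-dependent kinases, of 1275 and 2626. In mop-25.3, lsy-27, aly-2, an mRNA export factor gene, and ceh-49, a homeobox gene, the log2 differences were -1.22, -1.21, -1.07 and -1.55.

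Some lower genes departed the other way, and 74 of the 630 differed from WT in WAGO-4 KO only. An example follows. W02B8.2, chosen after its values were seen, was at 508 in WT, 646 in 3xFG, 3071 in WAGO-4 KO and 548 in WAGO-4(Y611E). WAGO-4 KO alone was high (log2 difference -2.25, SE 0.34, adjusted p = 9.31e-08).

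Among genes higher in 3xFG, the leading named genes were mostly low in WAGO-4 KO. vglu-2 was at 954 in WT, 853 in 3xFG, 284 in WAGO-4 KO and 788 in WAGO-4(Y611E) (log2 difference 1.59, SE 0.23, adjusted p = 3.93e-08). gln-3, a glutamine synthetase gene, had means of 11828 in WT, 11573 in 3xFG, 4927 in WAGO-4 KO and 8591 in WAGO-4(Y611E) (log2 difference 1.23, SE 0.21, adjusted p = 1.86e-06), and cpi-1, a cystatin gene, of 998 in WT, 1012 in 3xFG, 389 in WAGO-4 KO and 810.0 in WAGO-4(Y611E) (log2 difference 1.38, SE 0.23, adjusted p = 2.01e-06). In each of these genes WAGO-4 KO was the lowest strain. The RNA-binding protein gene msi-1 and the trehalose phosphate synthase gene tps-2 had log2 differences of 1.12 and 1.14, and clec-52, rsf-1, oac-9 and cyn-2 of 2.01, 1.53, 3.35 and 2.48. egl-30, which encodes a G protein alpha subunit, was instead high in 3xFG, at 4066 in WT, 6487 in 3xFG, 3186 in WAGO-4 KO and 3965 in WAGO-4(Y611E) (log2 difference 1.03, SE 0.17, adjusted p = 1.34e-06).

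A few genes without a symbol, singled out after their values were seen, were highest in 3xFG. C38D9.2 was at 23.6 in WT, 881 in 3xFG, 13 in WAGO-4 KO and 6.62 in WAGO-4(Y611E) (log2 difference 6.08, SE 1.07, adjusted p = 6.07e-06). F15D4.5 was at 77 in WT, 829 in 3xFG, 58.6 in WAGO-4 KO and 35.5 in WAGO-4(Y611E) (log2 difference 3.82, SE 0.59, adjusted p = 1.17e-07), and T10D4.6 at 645 in WT, 2184 in 3xFG, 785 in WAGO-4 KO and 1090 in WAGO-4(Y611E) (log2 difference 1.48, SE 0.23, adjusted p = 1.89e-07). T16A9.5 was highest in 3xFG and lowest in WAGO-4 KO, at 865 in WT, 1848 in 3xFG, 203 in WAGO-4 KO and 675 in WAGO-4(Y611E) (log2 difference 3.19, SE 0.56, adjusted p = 6.22e-06). The means of T23F6.3 were 92.2 in WT, 352 in 3xFG, 10.9 in WAGO-4 KO and 115 in WAGO-4(Y611E) (log2 difference 5.01, SE 0.82, adjusted p = 9.45e-07), again with the extremes in the compared strains.

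**Figure D2:**
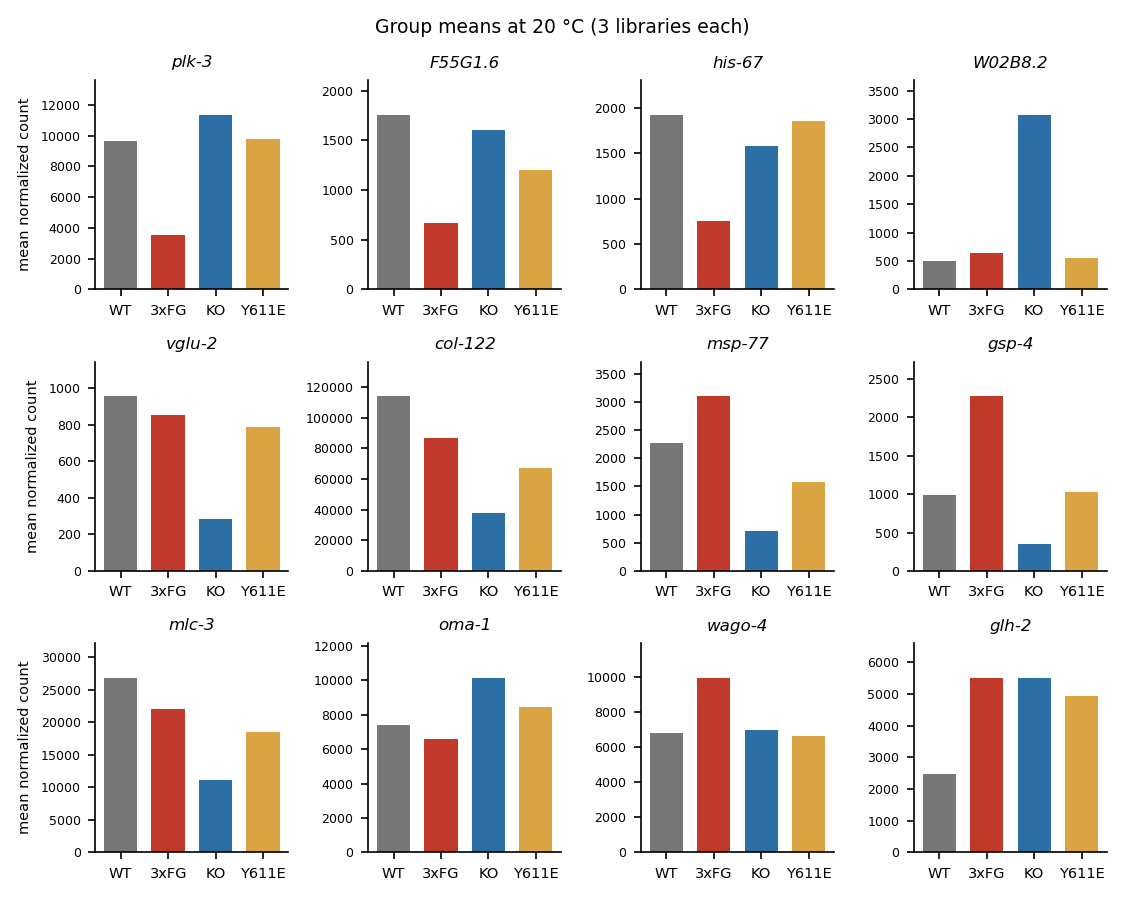
Group means of 12 genes at 20 °C (vertical axis, mean normalized count, each panel on its own scale from 0) in WT, 3xFG, WAGO-4 KO (KO) and WAGO-4(Y611E) (Y611E), 3 libraries each; bars have no error because no library values were held. plk-3, F55G1.6 and his-67 were lowest in 3xFG, vglu-2, col-122 and mlc-3 lowest in WAGO-4 KO, and W02B8.2 highest in WAGO-4 KO.

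Many sperm genes were higher in 3xFG. Of the 29 major sperm protein genes, which encode the cytoskeletal protein of nematode sperm, 21 were higher and 0 lower in 3xFG, and all 29 had a positive difference, with a median of 1.80 against 0.18 for all genes. The summed means of the list were 53212 in WT, 60223 in 3xFG, 17370 in WAGO-4 KO and 34964 in WAGO-4(Y611E). WAGO-4 KO was the low strain, and 3xFG lay near WT. msp-77 was at 2276 in WT, 3096 in 3xFG, 714 in WAGO-4 KO and 1571 in WAGO-4(Y611E) (log2 difference 2.12, SE 0.46, adjusted p = 4.30e-04), and msp-33 and msp-40 had log2 differences of 2.00 and 2.06. These genes have near-identical copies, so their counts are uncertain gene by gene.

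Of 46 other sperm genes, 17 were higher and 0 lower in 3xFG, with a median of 2.41, and 1 of these calls had a group mean under 1. Here the strains lay on opposite sides of WT, with a median log2 ratio to WT of 0.79 in 3xFG and -1.45 in WAGO-4 KO. gsp-4, a sperm protein phosphatase gene, was at 995 in WT, 2273 in 3xFG, 345 in WAGO-4 KO and 1025 in WAGO-4(Y611E) (log2 difference 2.72, SE 0.54, adjusted p = 9.36e-05), and spe-46 at 211 in WT, 583 in 3xFG, 72.8 in WAGO-4 KO and 216 in WAGO-4(Y611E) (log2 difference 3.00, SE 0.73, adjusted p = 0.00173). The Argonaute genes alg-3 and alg-4, which act with 26G RNAs in spermatogenesis, followed the sperm genes. alg-4 was at 892 in WT, 2602 in 3xFG, 201 in WAGO-4 KO and 918 in WAGO-4(Y611E) (log2 difference 3.69, SE 0.81, adjusted p = 3.98e-04), and alg-3 had a log2 difference of 3.34 (SE 0.82, adjusted p = 0.00204). In whole worms, fewer cells of a type and less RNA per cell cannot be told apart.

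Many genes of somatic tissues were also higher in 3xFG than in WAGO-4 KO. Of 117 cuticle collagen genes, 34 were higher and 0 lower in 3xFG, with a median of 1.63; 2 of these calls had a group mean under 1. col-122 was at 113784 in WT, 86338 in 3xFG, 37863 in WAGO-4 KO and 67110 in WAGO-4(Y611E) (log2 difference 1.19, SE 0.21, adjusted p = 9.89e-06), and col-184 and col-160 had log2 differences of 1.26 and 1.29. Of 26 body wall muscle genes, 15 were higher and 0 lower in 3xFG, with a median of 0.97. The myosin light chain gene mlc-3 was at 26815 in WT, 22043 in 3xFG, 11200 in WAGO-4 KO and 18494 in WAGO-4(Y611E) (log2 difference 0.98, SE 0.23, adjusted p = 9.64e-04), and the troponin T gene tnt-2 and the actin gene act-4 had log2 differences of 0.82 and 0.95. The summed muscle means were 334174 in WT, 325105 in 3xFG, 144393 in WAGO-4 KO and 262730 in WAGO-4(Y611E), again with WAGO-4 KO as the low strain.

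In 22 neuronal genes, 5 were higher and 0 lower in 3xFG, with a median of 1.36. ida-1 and egl-3, which act in dense core vesicles and neuropeptide processing, and unc-25, the enzyme that makes GABA, had log2 differences of 1.51, 1.54 and 1.39. Among 86 neuropeptide and insulin genes, 3 were higher and 0 lower in 3xFG (median 0.80): nlp-77 (1.06), nlp-4 (5.34) and flp-5 (2.16), of which nlp-4 had a WAGO-4 KO mean of only 1.49. That is 3.49% of the list, below the 8.59% of all genes. Of 62 moulting and hedgehog-related genes, 7 were higher and 1 lower in 3xFG (median 0.88). These shares, 11.3% and 1.61%, were near the 8.59% and 4.65% of all genes. The median mean count was 67.2 in the moulting list and 41.2 in the neuropeptide list. All genes with a mean count from 10 to 100 had a median difference of 0.85, close to both list medians. ptr-21 was high in 3xFG, at 2842 against 1646 in WT and 1456 in WAGO-4 KO, whereas ptr-2 was the lower member, at 7265 in 3xFG and 10702 in WAGO-4 KO.

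Of 11 hypodermal and seam genes, 3 were higher and 0 lower in 3xFG (median 0.26), and these were vab-10, elt-3 and ajm-1, with log2 differences of 1.30, 1.15 and 1.06. With the trend of the difference over transcript length removed, all these calls were lost (adjusted p = 0.153, 0.0525 and 0.0717), and the list had 0 higher and 1 lower. The vitellogenin genes, whose yolk proteins the intestine makes for oocytes, had 4 of 6 members higher and 0 lower, with a median of 0.60. vit-2 was at 908394 in WT, 1179646 in 3xFG, 729048 in WAGO-4 KO and 753957 in WAGO-4(Y611E) (log2 difference 0.69, SE 0.17, adjusted p = 0.00147), with 3xFG as the high strain. Of 16 intestinal genes, 4 were higher and 0 lower in 3xFG (median 0.62), among them fat-7, a fatty acid desaturase gene, at 0.94, asp-1 at 0.58 and lbp-6 at 0.60. After re-centring lbp-6 and vit-4 were not called, with adjusted p of 0.0727 and 0.0901, nor was asp-1 without the length trend (0.428).

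Genes of the oocyte and of dividing germ cells that were called were all lower in 3xFG. Of 34 oocyte and eggshell genes, 0 were higher and 18 lower in 3xFG, with a median of -0.43. These are abundant transcripts, with a median mean count of 11954, and 52.9% of the list was lower. Among all genes with a mean count over 1000, 12.2% were higher and 10.7% lower, with a median of -0.13. oma-1, an RNA-binding protein gene needed for oocyte maturation, was at 7397 in WT, 6562 in 3xFG, 10134 in WAGO-4 KO and 8417 in WAGO-4(Y611E) (log2 difference -0.63, SE 0.14, adjusted p = 5.75e-04), and pos-1 and mex-6 had log2 differences of -0.76 and -0.86. The summed means of the list were 631861 in WT, 621775 in 3xFG, 788347 in WAGO-4 KO and 670493 in WAGO-4(Y611E). WAGO-4 KO was the high strain, the opposite of its place in the sperm, muscle and collagen lists. How far the share of sperm, soma and oocyte RNA in the libraries contributes to any of these gene groups was not tested.

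Of 22 S phase genes, 0 were higher and 11 lower in 3xFG, and 22 had a negative difference, with a median of -0.43. pcn-1, the gene of the replication clamp, was at 9916 in WT, 7388 in 3xFG, 10709 in WAGO-4 KO and 7748 in WAGO-4(Y611E) (log2 difference -0.54, SE 0.11, adjusted p = 2.91e-04), and mcm-4 and mcm-3, subunits of the replicative helicase, had log2 differences of -0.51 and -0.47. Of 33 germline stem, meiotic and synaptonemal genes, 0 were higher and 6 lower in 3xFG (median -0.19), including lag-1 at -0.43, htp-2 at -0.52 and syp-2 at -1.06. The median mean count was 7135 in the S phase list and 1792 in the meiotic list. Their lower shares were 50% and 18.2%, beside 10.7% of all genes with a mean count over 1000. The median difference of all those genes was -0.13.

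Calls among histone genes were mostly lower. Of 46 tested, 1 was higher and 12 lower in 3xFG, with a median of -0.52. All mutants lay below WT, with a median log2 ratio to WT of -0.74 in 3xFG, -0.38 in WAGO-4 KO and -0.34 in WAGO-4(Y611E). The core histone gene his-67 was at 1925 in WT, 750.2 in 3xFG, 1577 in WAGO-4 KO and 1862 in WAGO-4(Y611E) (log2 difference -1.07, SE 0.26, adjusted p = 0.002), and his-3 and his-60 had log2 differences of -1.40 and -0.84. 3xFG was the low strain in each. The exception was his-70, at 186 in 3xFG and 15.7 in WAGO-4 KO (log2 difference 3.57, SE 1.17, adjusted p = 0.0258). Core histone genes have near-identical copies, so single genes are uncertain.

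Ribosomal protein genes had 2 of 78 members higher and 6 lower, with a median of -0.20. The list had a median mean count of 23402. Its lower share, 7.69%, was under the 10.7% of all genes with a mean count over 1000, whose median was -0.13. After re-centring, which moves such abundant genes further below 0, the list had 0 higher and 35 lower. Here too all mutants lay below WT, with a median log2 ratio of -0.62 in 3xFG, -0.45 in WAGO-4 KO and -0.44 in WAGO-4(Y611E). The lower members included rpl-25.2 at -0.70 and rps-25 at -0.52, and the higher ones were rpl-11.2 at 0.79 and rpl-25.1 at 0.76.

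**Figure D3:**
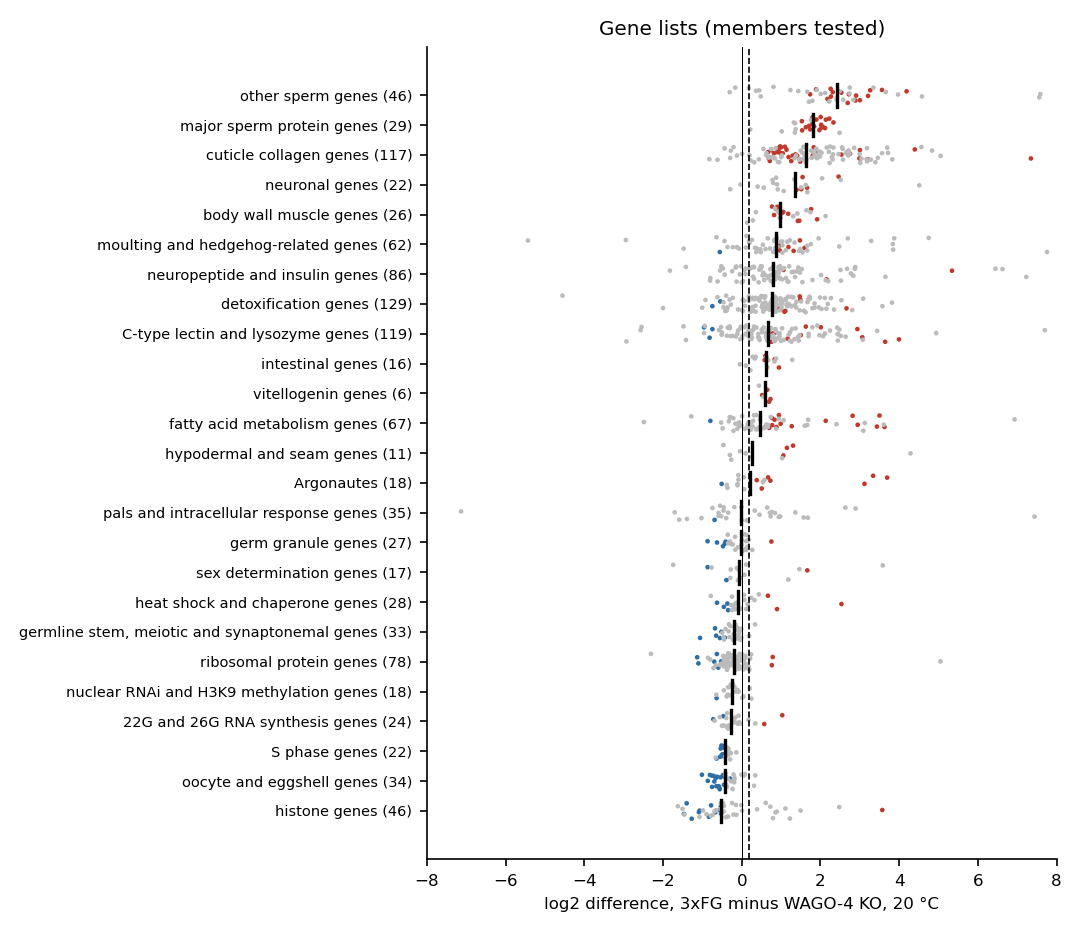
Log2 difference of 3xFG minus WAGO-4 KO at 20 °C (horizontal axis) for each tested member of 25 gene lists, with the number tested in brackets. Points are genes, red if higher and blue if lower in 3xFG, black bars are list medians, the dashed line is the median of all genes, 0.18, and 3 members beyond 8 lie outside the axis. Sperm, collagen, neuronal and muscle lists lie to the right, and histone, oocyte and S phase lists to the left.

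The calls among genes of small RNA pathways depended on the centring. Of 18 Argonaute genes, 7 were higher and 1 lower in 3xFG (median 0.22). After re-centring the counts were 4 higher and 5 lower and the median 0.04, so the balance rests on the centring. With the trend over transcript length removed instead, they were 7 higher and 3 lower and the median 0.10. The 7 higher genes of the main test include alg-3 and alg-4, given above with the sperm genes. ppw-2 was high in 3xFG, at 11972 in WT, 19284 in 3xFG, 12133 in WAGO-4 KO and 11584 in WAGO-4(Y611E) (log2 difference 0.67, SE 0.10, adjusted p = 5.82e-08), and alg-5 was the lower one, at -0.51. Of 24 genes of 22G and 26G RNA synthesis, 2 were higher and 2 lower in 3xFG (median -0.28): rde-11, which acts in 22G RNA amplification, at 1.03, parn-1, which trims piRNAs, at 0.57, the nucleotidyltransferase gene mut-2 at -0.72 and the double-stranded RNA-binding protein gene rde-4 at -0.47. That is 8.33% of the list in each direction, not far from the 8.59% higher and 4.65% lower over all genes. After re-centring the list had 1 higher and 9 lower, and parn-1 was not called (adjusted p = 0.18). Without the trend of the difference with transcript length it had 1 higher and 10 lower.

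Of 27 germ granule genes, 1 was higher and 5 lower in 3xFG (median -0.01). These were 3.7% and 18.5% of the list, beside 12.2% and 10.7% of all genes with a mean count over 1000. znfx-1, the Z granule helicase gene, was at 6368 in WT, 17380 in 3xFG, 10324 in WAGO-4 KO and 9714 in WAGO-4(Y611E) (log2 difference 0.75, SE 0.22, adjusted p = 0.0112), above WT in all mutants; after re-centring its adjusted p was 0.0507. cgh-1 and car-1, which repress maternal mRNAs, and meg-1 had log2 differences of -0.48, -0.41 and -0.63. After re-centring the germ granule list had 0 higher and 9 lower. Of 18 nuclear RNAi and H3K9 methylation genes, 0 were higher and 1 lower in 3xFG; the single call was hpl-2, a gene of the HP1 family, at -0.64 (SE 0.23, adjusted p = 0.0472). The call is 5.56% of the list, near the 4.65% lower over all genes. After re-centring that list had 0 higher and 8 lower, and without the length trend 0 higher and 6 lower. Of 17 sex determination genes, 1 was higher and 2 lower in 3xFG, or 5.88% and 11.8%, beside 8.59% and 4.65% over all genes. sdc-3, which acts in sex determination and dosage compensation, was at 446 in WT, 3096 in 3xFG, 976 in WAGO-4 KO and 773 in WAGO-4(Y611E) (log2 difference 1.67, SE 0.37, adjusted p = 6.08e-04), while fem-2 and fog-2 had log2 differences of -0.39 and -0.87.

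In stress and metabolic lists the balance of calls often depended on the centring. Of 28 heat shock and chaperone genes, 3 were higher and 4 lower in 3xFG (median -0.10), with hsp-12.3 at 2.53 and hsp-90 at -0.35. The shares of this list were 10.7% higher and 14.3% lower, against 8.59% and 4.65% of all genes. After re-centring its counts were 2 higher and 12 lower. Of the C-type lectin and lysozyme genes tested, 13 were higher and 3 lower in 3xFG (median 0.67), with clec-160 at 1.5 and clec-87 at -0.82. The shares of this list were 10.9% higher and 2.52% lower, against 8.59% and 4.65% of all genes. After re-centring its counts were 7 higher and 3 lower. Of 129 detoxification genes, 9 were higher and 2 lower in 3xFG (median 0.78), with gst-4 at 2.66 and ugt-22 at 0.87. The higher share of the detoxification list, 6.98%, was near the 8.59% of all genes, and after re-centring the counts were 5 higher and 5 lower. Of 67 fatty acid metabolism genes, 15 were higher and 1 lower in 3xFG (median 0.46), with acs-1 at 0.77 and lbp-9 at -0.80, and after re-centring 11 higher and 6 lower. Of 35 pals and intracellular response genes, 0 were higher and 2 lower in 3xFG (median -0.01). The lower share, 5.71%, was near the 4.65% of all genes. One of the pals list's calls, pals-3, had a 3xFG mean under the floor and is not relied on, and skr-2 was at -0.69.

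By chromosome, the shares of called genes can be read beside 8.59% higher and 4.65% lower over all genes. The X chromosome, which is largely silent in germ cells, had 209 of 1842 genes higher and 19 lower (11.3% and 1.03%), with a median difference of 0.48. On the autosomes the medians ran from -0.02 on chromosome I to 0.38 on chromosome V. Mitochondrial DNA had 9 of 15 genes higher and 0 lower, with a median of 1.06. In those mitochondrial genes the median log2 ratio to WT was -0.93 in WAGO-4 KO and 0.11 in 3xFG.

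The called genes were then placed against WT, which shares its libraries between both ratios. Of the 1164 higher genes, 400 differed from WT in WAGO-4 KO only and 107 in 3xFG only, and in 647 neither mutant passed against WT. Of the 630 lower genes, 74 differed in WAGO-4 KO only, 269 in 3xFG only, and 283 in neither. Against WT, 9.52% of all genes were called in 3xFG and 9.77% in WAGO-4 KO. WAGO-4(Y611E) lay nearer to 3xFG in 756 of the higher genes and nearer to WAGO-4 KO in 426 of the lower ones. WT itself was nearer to 3xFG in 796 of the higher and in 189 of the lower genes. These counts are a description, since the called genes were chosen on the same ratios. Nearness was not counted over all genes, so these nearness counts have no background share beside them.

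The same strains were also sequenced at 26 °C, from other libraries. Of the higher genes, 1156 were measured there and 849 (73.4%) had the same sign, against 53.7% positive among all 13135 genes measured at both temperatures. Of the lower genes, 490 of 627 (78.1%) had the same sign, against 46.3% negative among all. Far fewer passed the test there. 62 higher and 39 lower genes were called in the same direction at 26 °C, where 1.7% of all genes were called higher and 1.02% lower, and 4 and 2 in the opposite one.

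Among the genes called at both temperatures were plk-3, with a log2 difference of -0.92 (SE 0.08, adjusted p = 1.20e-23) at 26 °C, F55G1.6 at -0.97 (SE 0.13, adjusted p = 6.89e-10) and W02B8.2 at -1.98 (SE 0.27, adjusted p = 6.89e-10). The difference of sdc-3 was 1.70 (SE 0.17, adjusted p = 3.11e-20) at 26 °C, and those of rde-11 and ppw-2 were 1.56 (SE 0.19, adjusted p = 2.90e-13) and 0.27 (SE 0.08, adjusted p = 0.0267). wago-4 was also higher in 3xFG at 26 °C, by 0.48 (SE 0.14, adjusted p = 0.0234).

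The medians of the sperm and somatic lists were smaller at 26 °C. The median of the major sperm protein genes was 0.26 there, that of the collagen genes 0.06 and that of the muscle genes 0.08, with 0, 1 and 0 members called higher. The other sperm genes had a median of 0.59 at 26 °C with 4 members called higher, of which 2 were called at both temperatures. The difference itself changed between temperatures in 276 of 13135 genes (2.1%), of which 10 were collagen, 4 major sperm protein and 3 muscle genes. For the mitochondrial genes the median was -0.79 at 26 °C. The histone median was -0.31 and that of the oocyte genes -0.16.

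**Figure D4:**
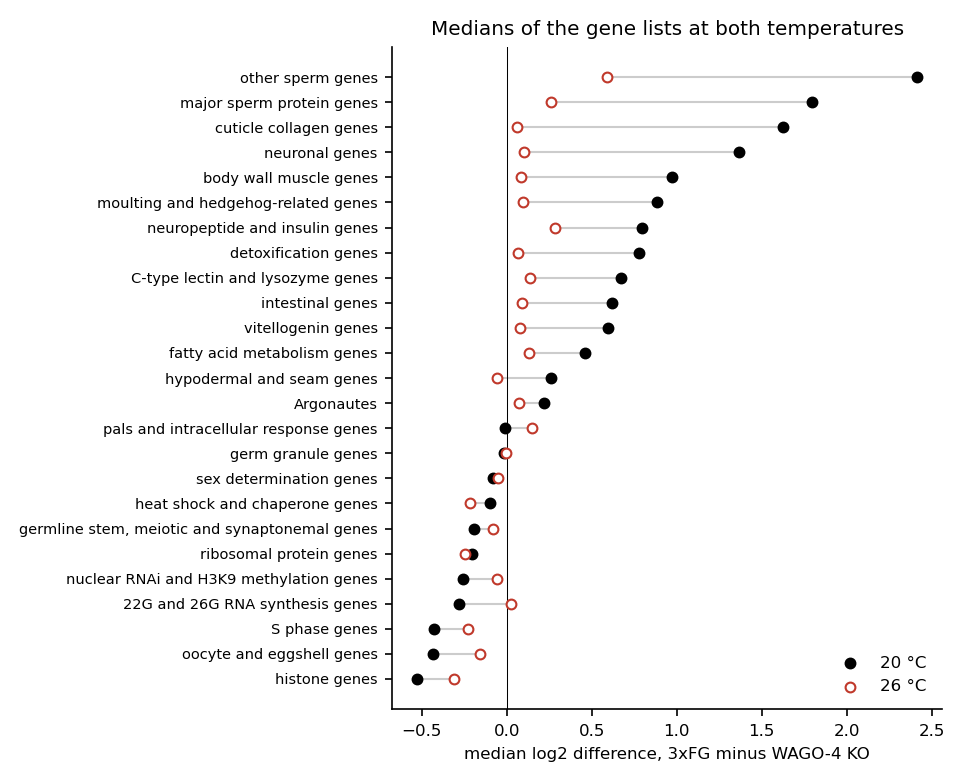
Median log2 difference of 3xFG minus WAGO-4 KO (horizontal axis) of each of 25 gene lists at 20 °C (filled points) and at 26 °C (open points), joined by a line. The sperm, collagen, neuronal and muscle medians were far above 0 at 20 °C and close to 0 or lower than 0.6 at 26 °C.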

How the data were processed

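RNA was measured in 24 libraries, 3 for each of 8 groups. The authors deposited 10 tables made with DESeq2, which hold a mean normalized count (a signal, being the mean of 12 libraries) and a log2 fold change with its SE; the labels name the build WBcel235, and the aligner and counter are not given in the sources used here. The files hold 0 columns of per-library values, so depth per library is unknown; the mean normalized counts summed to 30474128. Only the mean count, log2 fold change and SE of the 6 tables of a mutant against WT were used. Counts were not held here, so the authors' fold changes and SEs were the starting point. The other columns hold the authors' own test results and shrunken ratios and were not used, nor were 4 tables comparing temperatures.

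Group means follow from the mean count and the 3 ratios, with 3 libraries in each of 4 groups. The dispersion of a gene was the median of the 3 values implied by its SEs under the negative binomial variance, with means of at least 0.5. This returned the deposited SEs within 4.77% at most. The squared SE of a difference is the sum of both squared SEs less 2 times the variance of the WT mean. Benjamini-Hochberg adjustment ran over all genes with a mean count of at least 10, and a change with temperature was tested over the genes that passed this minimum at both. Gene positions and transcript lengths came from Ensembl 115, which covered all 13546 genes and may differ from the authors' annotation. The tools were scipy 1.17.1, pandas 2.3.3 and numpy 2.4.6 under Python 3.11.15, with matplotlib 3.10.9 for plots.

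The method was tested on simulated counts with known changes. The SEs were recovered, but the normal test did not hold its level everywhere. Where a group mean was under 1 it called unchanged genes far too often, and it was mildly too liberal up to a mean of 30. The test was kept as designed, and counts without those genes were added after this was seen. The simulation took each dispersion as known, so it does not check the error from estimating it with 3 libraries per group.

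Genes were named by rule: in each direction the 12 lowest p-values among called genes with a symbol, a log2 difference of at least 1 and a mean count of at least 100; wago-4 and the GLH genes; and up to 3 called members per direction of each list. A few genes with a sequence name were chosen after their values were seen. The members, the 25 lists and the tests were chosen with earlier results of these data known, and nothing here is independent support for a pattern already known. The labels number the libraries 1 to 3 and the study calls them biological replicates.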

Additional observations from a re-analysis of the deposited data

Results flagged for a closer look

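The difference between 3xFG and WAGO-4 KO itself changed between 20 °C and 26 °C in 276 genes, tested as the difference of both log2 differences with Benjamini-Hochberg adjustment. The genes named above that were among them, and mlt-7, a moulting gene chosen by the same naming rule, are given here. Values are the log2 difference at 26 °C minus that at 20 °C. Most named genes were chosen for a low p at 20 °C, and the change uses the same 20 °C value. That choice favours movement toward 0, and every gene listed here moved against the sign of its 20 °C difference. Of the 276 genes, 213 were called higher and 33 lower at 20 °C. The values are thus a description, and how far temperature itself contributes was not tested apart from this choice. Among sperm genes the changes were gsp-4 -2.33 (adjusted p = 0.0262), alg-4 -3.05 (adjusted p = 0.0433), msp-77 -2.17 (adjusted p = 0.0156) and msp-33 -2.02 (adjusted p = 0.0262). Among somatic genes they were col-122 -1.21 (adjusted p = 0.00162), col-184 -1.44 (adjusted p = 7.69e-05), col-160 -1.34 (adjusted p = 0.00315), mlt-7 -1.64 (adjusted p = 0.00971), mlc-3 -1.07 (adjusted p = 0.0498), tnt-2 -0.88 (adjusted p = 0.043) and asp-1 -0.66 (adjusted p = 0.0468). Among metabolic, detoxification and immune genes they were gln-3 -0.87 (adjusted p = 0.0348), cpi-1 -1.12 (adjusted p = 0.0145), clec-52 -2.31 (adjusted p = 2.70e-04), ugt-22 -1.11 (adjusted p = 0.00135), acs-1 -0.85 (adjusted p = 0.00699) and gst-4 -2.59 (adjusted p = 0.0153). The other genes that moved down were F15D4.5 -2.75 (adjusted p = 0.00315), T23F6.3 -4.58 (adjusted p = 6.34e-04), egl-30 -0.90 (adjusted p = 0.0144), msi-1 -0.92 (adjusted p = 0.0128) and T16A9.5 -2.04 (adjusted p = 0.0449). The genes that moved up, and so were less far below WAGO-4 KO or no longer below it at 26 °C, were plk-3 0.75 (adjusted p = 0.0116), pfd-6 1.67 (adjusted p = 0.0469), lsy-27 1.62 (adjusted p = 0.00135) and aly-2 1.07 (adjusted p = 0.0326). With a stricter reference the count was far lower: 3 genes passed with a t distribution of 16 degrees of freedom. The 3 libraries per group could not be examined one by one.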

How the results depend on the processing

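The count of 1794 called genes (1164 higher, 630 lower) depends most on how uncertainty is counted. With the upper bound of the SE it was 53 (42 and 11), and with a t distribution of 8 degrees of freedom 0 (0 and 0), the lowest adjusted p then being 0.076. At an adjusted p under 0.01 it was 727 (519 and 208), and at 2-fold or more 903 (790 and 113). Re-centring on the median gave 817 higher and 1734 lower genes, and removing the trend with transcript length gave 792 and 1780. The other planned settings stayed within 1.5 times, as did the settings added after seeing the data, which left out genes with a group mean under 1 or under 30. The count of 276 genes whose difference changed with temperature fell to 3 with a t distribution of 16 degrees of freedom and to 4 with the upper bound. Of 117 named genes, 22 called ones passed under the upper bound, among them plk-3, vglu-2 and ppw-2. The uncalled GLH genes changed sign: glh-4 to -0.0039 after re-centring and -0.026 without the length trend, glh-1 to -0.073 after re-centring, and glh-2 to -0.18 and -0.13. Of the named genes 8 lost their call after re-centring and 10 without the length trend. No list median changed sign in the settings run. No paired analysis was possible because the files hold no values per library, and for the same reason no replicate could be left out.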
